A study of Mus musculus with 9 samples.

Results

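Macrophage marker genes were described in mouse white fat, brown fat and soleus, a muscle of the calf. A list of 10 symbols was taken (Cd68, Adgre1, Csf1r, Mrc1, Cd163, Cd14, Lyz2, Lgals3, Fcgr1 and Clec10a), and the rows of the deposited RefSeq matrix whose accessions belong to a symbol were summed. Rows were matched for 7 of the 10 among 17753 symbols in all, and Cd68, Lyz2 and Clec10a, for which no accession could be matched, are not analysed here. The tissues came from male C57BL/6J mice aged 3 months, wild type and without any treatment in the labels, with 3 RNA-seq libraries per tissue and 9 in all. According to the labels the tissues came from 3 mice, but no label ties a library to a mouse, so p-values measure the spread between libraries, which may be technical. The sources used here did not name the depot of the white fat. Levels are in FPKM, fragments scaled to transcript length and to the mapped total, so that genes of different length can be compared.

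Macrophages are phagocytes that live in every tissue. They depend on signalling through the receptor encoded by Csf1r, take up debris, pathogens and modified proteins through scavenger and lectin receptors, and digest them in lysosomes. In white fat they clear dying adipocytes and handle released lipid, and in muscle they take part in repair. Each library was made from whole tissue, so fewer macrophages and less RNA per macrophage cannot be told apart, nor can a gene's expression by macrophages from its expression by other cells.

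Markers of the labelled tissues were found where the labels put them. Ucp1, the uncoupling protein of heat production, stood at 3386 to 4108 FPKM in brown fat, against 1.45 to 35.7 in white fat and 0.62 to 4.14 in soleus. The leptin gene Lep stood at 213 to 223 FPKM in white fat, against 5.95 to 13.3 for brown fat and 0.57 to 5.99 for soleus, and Myl3, a slow muscle light chain, at 6098 to 7007 FPKM in soleus and at most 1.68 in both fats. The files hold no read totals. From the steps between low values, white fat replicate 3 was estimated to be the deepest library, at 3.56 times the depth of the shallowest, white fat replicate 2. Each library had 8487 to 9305 symbols at 1 FPKM or more. Tests ran on the 9913 symbols that reached 1 FPKM in 3 or more libraries.

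Promoter windows are shown for the 4 of the 7 matched genes that the RefSeq table of GRCm38.p6 lists and that can be printed, because these genes were high together in white fat and PU.1, an ETS family factor of the macrophage lineage, is known to bind purine-rich DNA. Each window runs from 250 bases before to 50 bases after the start of the gene, 5′ to 3′ on the gene's strand. Capitals mark GAGGAA or AGGAAG on either strand, motifs that can overlap each other.
Mrc1, chr2:14229164-14229463, plus strand: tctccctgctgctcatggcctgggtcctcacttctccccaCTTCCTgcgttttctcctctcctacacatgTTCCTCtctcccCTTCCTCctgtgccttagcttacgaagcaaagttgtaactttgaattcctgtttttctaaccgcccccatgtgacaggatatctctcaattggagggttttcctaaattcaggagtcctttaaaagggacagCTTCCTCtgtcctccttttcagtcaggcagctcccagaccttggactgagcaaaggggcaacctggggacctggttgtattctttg
Fcgr1, chr3:96293920-96294219, minus strand: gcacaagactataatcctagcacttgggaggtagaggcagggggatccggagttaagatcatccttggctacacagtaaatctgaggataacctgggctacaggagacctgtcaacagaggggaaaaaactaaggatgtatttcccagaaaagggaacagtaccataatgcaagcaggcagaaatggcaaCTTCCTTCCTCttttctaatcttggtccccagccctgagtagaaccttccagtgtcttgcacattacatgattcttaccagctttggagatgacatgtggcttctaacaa
Cd163, chr6:124304401-124304700, plus strand: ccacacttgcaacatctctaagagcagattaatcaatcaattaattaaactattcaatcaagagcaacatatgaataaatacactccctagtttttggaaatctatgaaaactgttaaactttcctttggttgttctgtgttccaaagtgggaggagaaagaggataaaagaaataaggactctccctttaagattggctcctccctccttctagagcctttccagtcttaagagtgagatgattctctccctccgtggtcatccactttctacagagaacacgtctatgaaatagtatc
Lgals3, chr14:47373610-47373909, plus strand: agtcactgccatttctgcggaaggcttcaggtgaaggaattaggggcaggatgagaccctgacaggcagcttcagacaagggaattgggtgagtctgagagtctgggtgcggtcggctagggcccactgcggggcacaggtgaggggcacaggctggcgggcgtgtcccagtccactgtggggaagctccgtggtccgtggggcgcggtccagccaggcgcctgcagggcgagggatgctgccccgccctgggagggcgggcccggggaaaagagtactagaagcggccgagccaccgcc
The windows differed in composition, with a GC content of 50.3% for Mrc1, 46.0% for Fcgr1, 38.0% for Cd163 and 67.0% for Lgals3. GAGGAA or AGGAAG was present in 2 of the 4, Mrc1 and Fcgr1, and 46.0% of the 32851 RefSeq windows of this length hold at least 1 of them. In Mrc1 there were 3 matches to each motif, all on the opposite strand, the nearest ending 30 bases before the start, and in Fcgr1 there were 1 and 2 matches, the nearest ending 50 bases before it. TATAAA was in 0 of the 4 windows (13.6% of all windows, either strand) and CCAAT in 3, Mrc1, Cd163 and Lgals3 (37.4% of all windows). These matches describe letters in the windows and are not binding sites.

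All 7 matched genes were highest in white fat. For each of them the lowest white fat library stood above the highest of the other 6 libraries, which held for 28.9% of the 9913 symbols tested. The mean FPKM in white fat was 3.25-fold (Cd14) to 24.7-fold (Lgals3) that in brown fat, and 12.2-fold (Cd163) to 19.4-fold (Mrc1) that in soleus. In replicates 1, 2 and 3 the 7 genes summed to 161, 178 and 192 FPKM in white fat, against 15.2, 18.6 and 15.9 FPKM in brown fat and 13.6, 9.04 and 11.3 FPKM in soleus. In white fat Csf1r stood above 95.1% of all symbols by its mean and Lgals3 above 94.8%, whereas in brown fat and soleus the 7 genes lay between 39.2% (Fcgr1 in soleus) and 67.4% (Cd14 in brown fat).

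**Figure D1:**
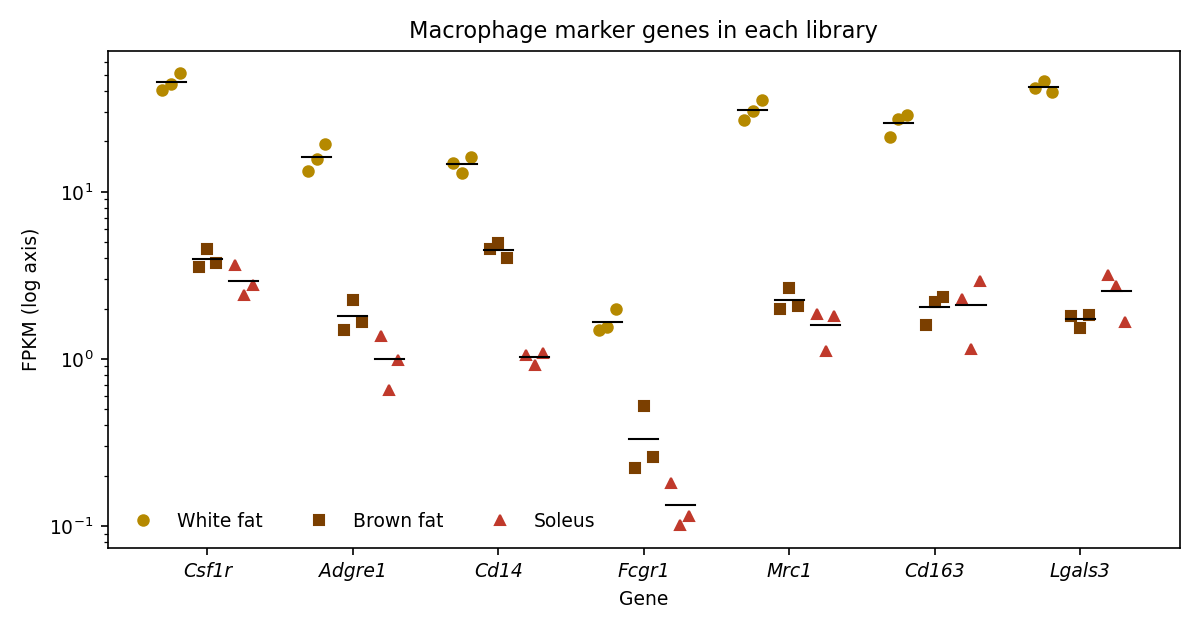
FPKM on a log axis for the 7 matched macrophage marker genes, with 1 point per library and a line at the mean of 3 libraries. Every gene has its 3 white fat points on top, and brown fat and soleus stand furthest apart for Cd14, at 4.03 to 4.94 FPKM in brown fat and 0.913 to 1.09 in soleus.

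Csf1r encodes the receptor for the growth factors CSF1 and IL-34, on which most macrophages depend. In replicates 1, 2 and 3, the order used throughout, white fat had 40.7, 44.2 and 51.1 FPKM, brown fat 3.55, 4.53 and 3.74, and soleus 3.64, 2.40 and 2.76. The white fat libraries lay apart from the rest, and brown fat and soleus overlapped. White fat was higher than brown fat by 3.23 log2 units on the log2(FPKM + 1) scale (SE 0.13, limma adjusted p = 4.7e-09, Benjamini-Hochberg over all tested symbols) and higher than soleus by 3.57 (SE 0.13, adjusted p = 9.0e-10). Adgre1 encodes F4/80, an adhesion receptor used as a surface marker of mouse macrophages. It stood at 13.3, 15.7 and 19.3 FPKM in white fat, at 1.50, 2.26 and 1.67 in brown fat and at 1.38, 0.653 and 0.980 in soleus. The order white fat, brown fat, soleus held in every library of Adgre1, with no overlap between any pair of tissues. The difference was 2.60 log2 units from brown fat (SE 0.16, limma adjusted p = 1.1e-07) and 3.09 from soleus (SE 0.16, adjusted p = 1.4e-08).

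Cd14 and Fcgr1 encode receptors that sense pathogens and antibody. CD14 hands bacterial lipopolysaccharide to the receptor TLR4, and Cd14 stood at 14.9, 12.9 and 16.1 FPKM in white fat, 4.57, 4.94 and 4.03 in brown fat and 1.05, 0.913 and 1.09 in soleus. The 3 tissues formed 3 separate levels, with brown fat in the middle. White fat was 1.50 log2 units above brown fat (SE 0.09, limma adjusted p = 1.2e-07) and 2.95 above soleus (SE 0.09, adjusted p = 3.9e-10). Fcgr1 encodes the high-affinity Fc receptor for IgG and was the least abundant of the 7, at 1.49, 1.54 and 1.98 FPKM in white fat, 0.221, 0.522 and 0.257 in brown fat and 0.182, 0.101 and 0.115 in soleus. It passed the filter on low values through white fat alone, so its difference there is partly set by the filter. White fat stood 1.00 log2 units above brown fat (SE 0.10, limma adjusted p = 5.5e-06) and 1.23 above soleus (SE 0.10, adjusted p = 5.8e-07).

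Mrc1 and Cd163 encode scavenger and lectin receptors that are typical of resident macrophages. Mrc1, the mannose receptor CD206, stood at 27.1, 30.3 and 35.2 FPKM in white fat, 2.00, 2.67 and 2.07 in brown fat and 1.86, 1.12 and 1.79 in soleus. Soleus lay just below brown fat without overlap, and white fat was an order of magnitude above both. The difference was 3.29 log2 units from brown fat (SE 0.14, limma adjusted p = 6.5e-09) and 3.63 from soleus (SE 0.14, adjusted p = 1.3e-09). Cd163 encodes the receptor that clears haemoglobin bound to haptoglobin. Its summed rows gave 21.3, 27.3 and 28.6 FPKM in white fat, 1.59, 2.18 and 2.35 in brown fat and 2.29, 1.14 and 2.91 in soleus. White fat was 3.14 log2 units above brown fat (SE 0.20, limma adjusted p = 1.5e-07) and 3.14 above soleus (SE 0.20, adjusted p = 7.5e-08), and the brown fat values lay inside the range of soleus. Cd163 was the only one of the 7 with more than 1 row, and the 2 rows carried the same transcript accessions with different values. The higher row held 15.3, 21.9 and 19.1 FPKM in white fat and the other 6.03, 5.47 and 9.53.

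Lgals3 encodes galectin-3, a sugar-binding protein that macrophages make and secrete and that other cells make too. It stood at 42.1, 45.9 and 39.7 FPKM in white fat, 1.81, 1.54 and 1.82 in brown fat and 3.19, 2.72 and 1.67 in soleus. Of the 7 genes it had the largest white fat to brown fat difference, 4.0 log2 units (SE 0.14, limma adjusted p = 2.5e-09), and it was 3.65 above soleus (SE 0.14, adjusted p = 1.7e-09). Its mean was lower in brown fat than in soleus, at 1.72 ± 0.161 against 2.53 ± 0.779 FPKM (SD, n = 3), although the libraries of both overlapped.

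**Figure D2:**
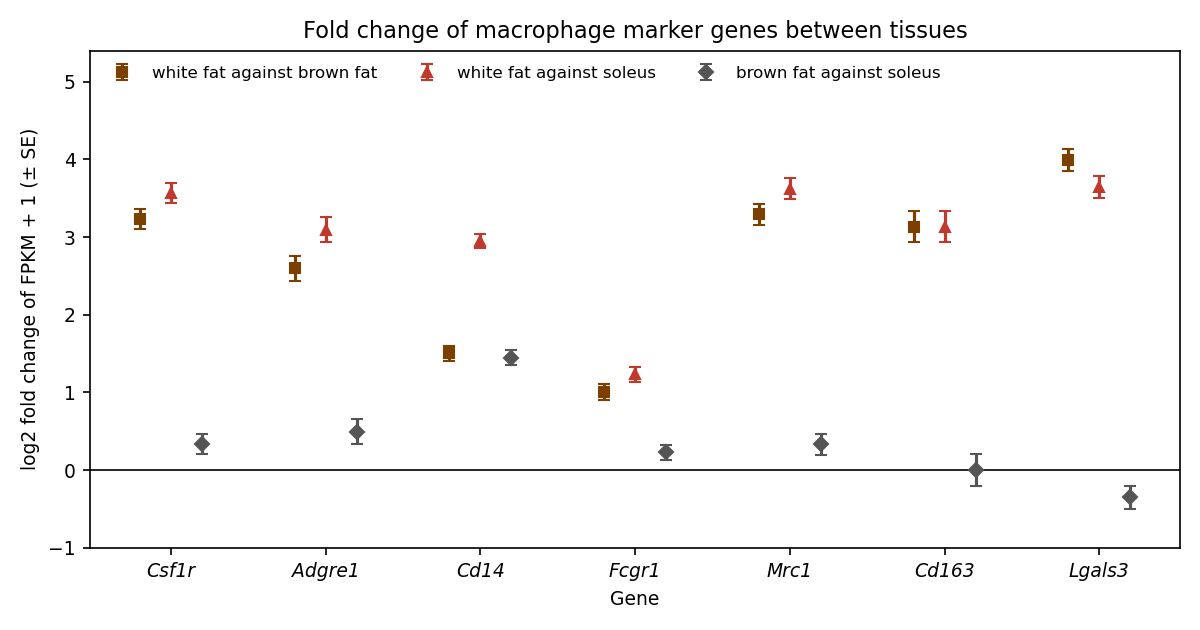
Log2 fold change of FPKM + 1 with its standard error from the fit over all 9 libraries, for the 7 matched genes and the 3 tissue comparisons. White fat stands above both other tissues for every gene, and brown fat against soleus is furthest from 0 for Cd14, at 1.45.

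In white fat against brown fat, 7 of the 7 tested genes were higher in white fat at an adjusted p under 0.05 (limma), where 34.8% of all tested symbols were higher in white fat and 38.0% were higher in brown fat. Their median was 3.14 log2 units, beside -0.03 over all tested symbols. In white fat against soleus 7 of 7 were higher in white fat as well, where 54.5% of all symbols were higher in white fat and 29.7% were higher in soleus, with a median of 3.14 beside 0.35. Both comparisons use the same white fat libraries and are not independent, and 1 of the 7, Fcgr1, entered only through white fat. A pseudocount of 5 in place of 1 lowered the difference from brown fat to 1.62 for Adgre1 and 0.32 for Fcgr1, and that from soleus to 1.81 for Adgre1, 1.70 for Cd14 and 0.38 for Fcgr1, with every call kept. A pseudocount of 0.1 raised Fcgr1 to 2.08 and 2.93.

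Between brown fat and soleus the 7 genes differed by at most 0.49 units of log2(FPKM + 1) in either direction, except for Cd14. At these low levels the added 1 shrinks a difference. The ratio of mean FPKM, brown fat over soleus, was 2.51 for Fcgr1, 1.80 for Adgre1, 1.41 for Mrc1, 1.34 for Csf1r, 0.965 for Cd163 and 0.681 for Lgals3. Over the alternatives Fcgr1 reached 0.85 and Adgre1 0.82 log2 units, and Lgals3 reached -0.66. Cd14 was 1.45 log2 units higher in brown fat (SE 0.09, limma adjusted p = 1.1e-07), with means of 4.51 ± 0.458 and 1.02 ± 0.0938 FPKM (SD, n = 3), and was called under all 20 alternatives, at 0.66 to 2.04 log2 units. Adgre1 (0.49, SE 0.16, adjusted p = 0.016), Csf1r (0.34, SE 0.13, adjusted p = 0.033) and Mrc1 (0.33, SE 0.14, adjusted p = 0.045) passed the threshold in brown fat's favour, and Lgals3 (-0.35, SE 0.14, adjusted p = 0.043) in that of soleus. Fcgr1 at 0.23 (SE 0.10, adjusted p = 0.059) and Cd163 at 0.00062 (SE 0.20, adjusted p = 1) did not pass. The count of 4 higher and 1 lower stood beside 52.9% of all symbols higher in brown fat and 25.6% higher in soleus, and the median of the 7 genes was 0.33 beside 0.29 over all symbols. Libraries of brown fat and soleus did not overlap for 4 of the 7 genes, against 81.1% of all tested symbols.

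The smaller calls between brown fat and soleus depended on the processing and on single libraries. The 5 calls became 1 without brown fat replicate 2 or without soleus replicate 2, and 2 without brown fat replicate 3. Csf1r moved to -0.0086 log2 units with median of ratios scaling (adjusted p = 0.96, range over its alternatives 0.0055 to 0.96), the scaling that brought the median of all symbols from 0.29 to -0.04. Cd163 passed when only its higher row was used, at 0.32 log2 units in brown fat's favour (adjusted p = 0.041, range over its alternatives 0.041 to 1). Adipoq, the adiponectin gene of adipocytes, was measured to unequal degrees in soleus, at 77.1, 31.8 and 12.4 FPKM. Soleus replicate 1 was the highest soleus library for 5 of the 7 macrophage genes and also for Adipoq. Replicate 2 was the lowest for 6 of the 7, whereas Adipoq was lowest in replicate 3. No share over all tested symbols was computed beside these counts. Whether adipose RNA in soleus bears on the values of the macrophage genes was not tested.

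Relative to Csf1r in the same library, the tissues stood furthest apart for Cd14, Fcgr1 and Lgals3 among the other 6 genes. Cd14 stood at 1.29, 1.09 and 1.08 times Csf1r in brown fat, at 0.366, 0.292 and 0.315 times in white fat and at 0.289, 0.381 and 0.396 times in soleus. The brown fat ratios were all above those of both other tissues, which overlapped each other. Lgals3 went the other way, at 0.512, 0.339 and 0.486 times Csf1r in brown fat, against 1.03, 1.04 and 0.776 for white fat and 0.878, 1.14 and 0.606 for soleus. Fcgr1 was also highest in brown fat, at 0.0623, 0.115 and 0.0686 times Csf1r, against 0.0365, 0.0349 and 0.0387 for white fat and 0.0499, 0.0421 and 0.0418 for soleus. Adgre1 was likewise highest relative to Csf1r in brown fat, with a geometric mean of 0.455 against 0.352 in white fat and 0.332 in soleus.

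Mrc1 stood at 0.664, 0.685 and 0.689 times Csf1r in white fat, against 0.564, 0.590 and 0.553 for brown fat and 0.512, 0.465 and 0.651 for soleus. White fat lay above both others, and these overlapped. Cd163 overlapped between all tissues, with 0.475 to 1.05 times Csf1r in soleus alone. Of 18 ratio comparisons (6 genes, 3 pairs of tissues) 11 had no overlap, where 84.2% of such comparisons over all other tested symbols had none. Each of the 11 had a two-sided exact permutation p = 0.1, the smallest that 3 against 3 libraries allow (adjusted p = 0.16 over the 18), so no ratio difference can pass a threshold of 0.05 in this design. As a share of the summed FPKM of the 7 genes, Cd14 made up 27.3% ± 2.45 of brown fat, against 8.30% ± 1.01 of white fat and 9.16% ± 1.25 of soleus (SD, n = 3), while Csf1r made up 23.7% ± 0.544, 25.6% ± 0.911 and 25.9% ± 1.31.

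**Figure D3:**
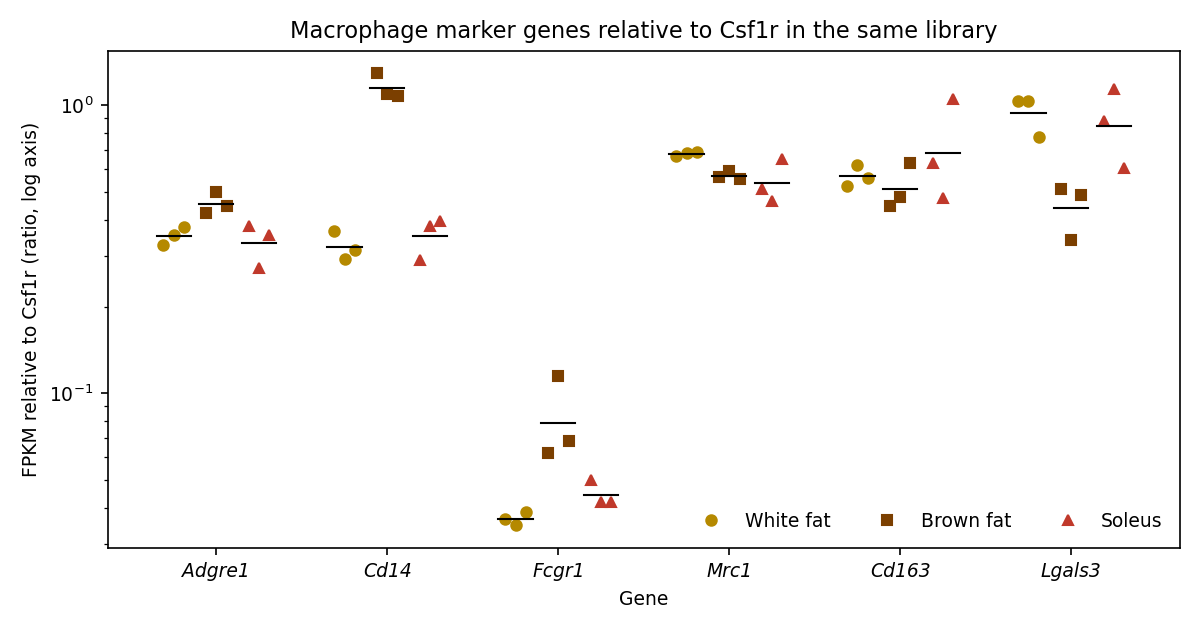
FPKM of 6 genes divided by that of Csf1r in the same library, on a log axis, with 1 point per library and a line at the geometric mean of 3 libraries. Cd14 stands at 1.08 to 1.29 in brown fat and at most 0.396 elsewhere, and Lgals3 is lowest in brown fat at 0.339 to 0.512.

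Within a tissue most of the 7 genes shared their highest and their lowest library. The share of all tested symbols with the same order was not computed, so these counts have no background beside them. White fat replicate 3, the deepest library, was the highest white fat library for 6 of the 7 genes and replicate 1 the lowest for 5. The exception at the top was Lgals3, which was highest in replicate 2 and lowest in replicate 3. White fat replicate 3 also held the most Ucp1 of the 3, at 35.7 FPKM against 7.81 and 1.45 in replicates 1 and 2. In brown fat replicate 2 was highest for 5 of the 7 and replicate 1 lowest for 5. The spread over 3 libraries, as a coefficient of variation, ran from 7.37% (Lgals3) to 18.7% (Adgre1) in white fat, from 9.34% (Lgals3) to 49.4% (Fcgr1) in brown fat and from 9.21% (Cd14) to 42.5% (Cd163) in soleus. The part of depth in this order was not tested.

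Other tested genes of macrophages were highest in white fat as well. A list of 36 such genes had 27 with a matched row, 23 of which were tested, and all 23 were higher in white fat than in brown fat (median 2.16 log2 units) and than in soleus (median 2.48). Of all tested symbols, 34.8% were higher in white than in brown fat and 54.5% higher in white fat than in soleus. Of the 23, 8 passed the filter through white fat alone. Among listed genes too low to test, white fat stood above all other libraries for Marco and Adgre4 but not for Cx3cr1 or Fcgr4. Cx3cr1 had means of 0.644, 0.482 and 0.248 FPKM in white fat, brown fat and soleus, and Fcgr4 of 0.827, 0.526 and 0.0534. The complement gene C1qb, the most abundant of the 23, stood at 139 ± 17.7 FPKM in white fat, 13.4 ± 1.54 in brown fat and 10.4 ± 1.74 in soleus, and C1qc at 119 ± 14.6, 11.0 ± 1.19 and 9.78 ± 2.22 (SD, n = 3). Tyrobp, an adaptor of activating immune receptors, stood at 76.3 ± 16.1, 9.02 ± 1.05 and 5.38 ± 2.30 FPKM, and Laptm5, a lysosomal gene of blood cells, at 45.0 ± 8.46, 4.26 ± 1.4 and 2.67 ± 0.331 FPKM. Between brown fat and soleus 10 of the 23 were higher in brown fat, 1 was higher in soleus and 12 did not pass, beside 52.9% and 25.6% of all tested symbols higher in brown fat and in soleus. Mpeg1, a pore-forming gene of phagocytes, was 0.86 log2 units higher in brown fat (SE 0.19, limma adjusted p = 0.0016), and the transcription factor gene Maf, which other cells use too, was 1.31 units lower there, -1.31 (SE 0.16, adjusted p = 2.0e-05). The 10 became 3 without brown fat replicate 2 or soleus replicate 3, 4 without soleus replicate 2 and 6 without brown fat replicate 3.

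Genes of resident and perivascular macrophages included some of the widest differences. All 12 tested genes of this list of 14 symbols were higher in white fat than in brown fat (median 3.35 log2 units) and than in soleus (median 3.38), and 1 of them, Timd4, passed the filter through white fat alone. The shares of all tested symbols higher in white fat were 34.8% against brown fat and 54.5% against soleus. Cd209f, a lectin gene, stood at 45.5 ± 6.15 FPKM in white fat, 1.55 ± 0.224 in brown fat and 0.752 ± 0.322 in soleus. F13a1, coagulation factor XIII subunit A, stood at 66.9 ± 4.34, 4.12 ± 0.305 and 3.48 ± 0.817 FPKM. Gas6, a ligand of the receptors that recognise dying cells and a gene that other cells make too, stood at 188 ± 21.4, 8.57 ± 0.429 and 32.8 ± 1.69 FPKM. Between brown fat and soleus 3 were higher in brown fat, among them the scavenger receptor gene Stab1 (2.71 ± 0.227 against 1.12 ± 0.293 FPKM) and the selenium carrier gene Selenop (411 ± 37.1 against 100.6 ± 12.5 FPKM). In the other direction 3 were higher in soleus, Gas6 and Lyve1, a hyaluronan receptor gene (1.20 ± 0.411 against 1.78 ± 0.212 FPKM), among them. For brown fat against soleus the shares of all tested symbols were 52.9% higher in brown fat and 25.6% higher in soleus. The count of 3 higher in brown fat became 6 without soleus replicate 1, and the count of 3 higher in soleus became 1 without brown fat replicate 2, soleus replicate 1 or soleus replicate 3.

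Of 13 tested lipid-associated genes 6 were higher in white fat than in brown fat, 4 were lower and 3 did not pass, with a median of 0.42 log2 units, beside 34.8% and 38.0% of all tested symbols. Of the 6, 2 (Trem2 and Gpnmb) passed the filter through white fat alone. Trem2, a lipid-sensing receptor of macrophages, stood at 5.09 ± 1.06 FPKM in white fat, 0.265 ± 0.0726 in brown fat and 0.443 ± 0.203 in soleus, and Ctsk, a protease gene, at 13.3 ± 1.59, 2.95 ± 0.0484 and 6.62 ± 1.42 FPKM. The most abundant in white fat, the fatty acid transporter gene Cd36, is made by adipocytes and muscle as well and stood at 1016 ± 87.7, 664 ± 29.3 and 217 ± 13.4 FPKM. Plin2, a lipid droplet coat gene, was higher in brown fat, at 414 ± 19.6 FPKM against 94.0 ± 7.34 in white fat, and Lpl, counted among the 4 lower genes, was listed at 0 in all 3 white fat libraries, so no fold is given.

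Ligands and attractants of macrophages were mostly higher in white fat too, 10 of 13 tested against brown fat, with 2 lower and 1 not passing (median 1.78 log2 units). The shares over all tested symbols were 34.8% higher in white fat and 38.0% higher in brown fat. Of the 10, 3 passed the filter through white fat alone. Csf1, a ligand of the Csf1r receptor, stood at 12.6 ± 0.388 FPKM in white fat, 1.56 ± 0.0505 in brown fat and 2.44 ± 0.355 in soleus, and Il34, named here because it encodes the other ligand, at 9.08 ± 1.22, 1.94 ± 0.355 and 1.78 ± 0.0512 FPKM. Ccr2, the receptor that recruits blood monocytes, stood at 13.7 ± 4.15, 0.829 ± 0.301 and 0.821 ± 0.334 FPKM. The cytokine gene Mif went the other way, at 12.5 ± 0.603 FPKM in white fat, 18.2 ± 0.906 in brown fat and 37.7 ± 3.28 in soleus, as did the chemokine gene Cx3cl1 at 0.600 ± 0.234, 0.963 ± 0.155 and 1.22 ± 0.0756 FPKM. With rescaling to a common total (TPM) neither was called lower in white fat than in brown fat, and the count of 2 was 1 without brown fat replicate 2 or 3 and without white fat replicate 1 or 2.

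Among 11 tested genes of alternative and classical activation, 9 were higher in white fat than in brown fat and 2 lower. Of all tested symbols 34.8% were higher in white fat and 38.0% higher in brown fat. Of the 9, 3 (Il10ra, Cd86 and Tlr2, named only for this) passed the filter through white fat alone. Among listed genes too low to test, white fat stood above all other libraries for Arg1, Il6 and Cd80 but not for Tnf or Il1b. Tnf had means of 0.0415, 0.0479 and 0.0262 FPKM in white fat, brown fat and soleus, and Il1b of 0.317, 0.217 and 0.0784. Retnla, a secreted gene of alternative activation, stood at 1600 ± 474 FPKM in white fat, 32.3 ± 7.36 in brown fat and 37.0 ± 16.9 in soleus, and Lbp, which carries lipopolysaccharide to CD14, at 46.5 ± 5.77, 1.11 ± 0.0887 and 4.10 ± 0.670 FPKM. The lower genes were Nos2, the inducible nitric oxide synthase of classical activation, at 0.725 ± 0.179 FPKM in white fat against 1.68 ± 0.286 in brown fat, and Myd88, an adaptor of Toll-like receptors, at 10.1 ± 0.777 against 12.4 ± 0.594. The count of 2 became 1 without any 1 of the brown fat libraries.

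**Figure D4:**
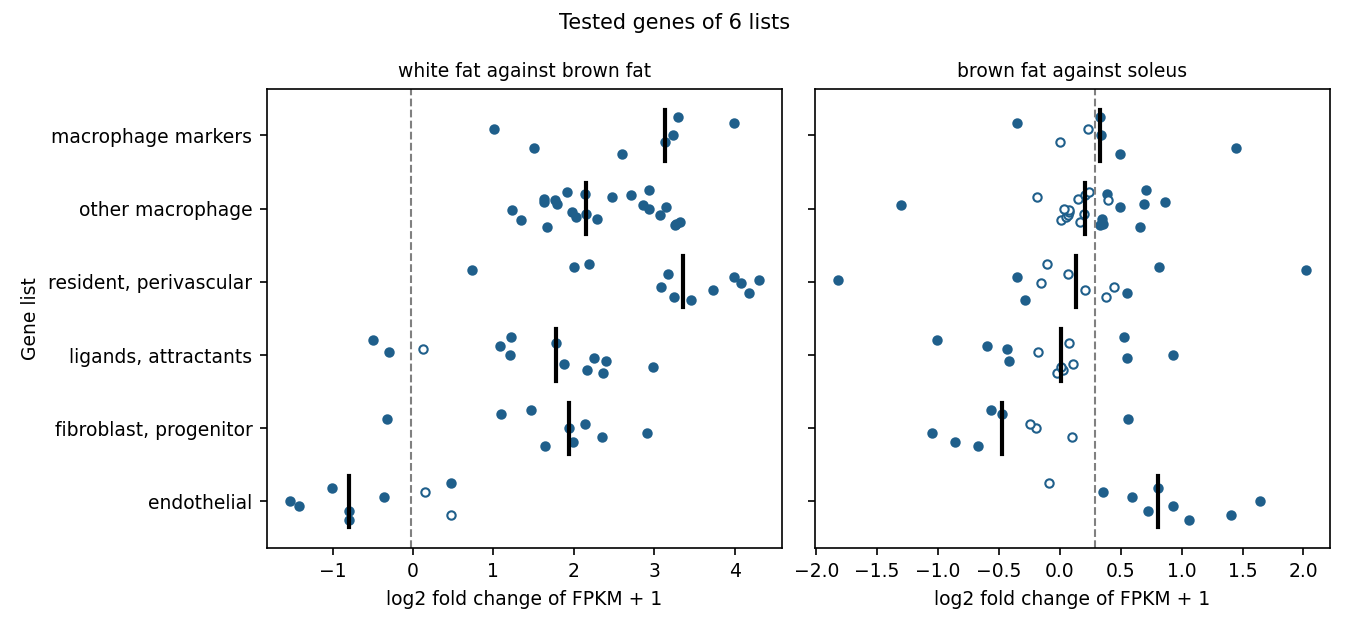
Log2 fold change of FPKM + 1 for each tested gene of 6 lists, in white fat against brown fat (left) and brown fat against soleus (right). Filled points passed an adjusted p under 0.05 (limma), open points did not, short black lines are list medians and the dashed line is the median of all tested symbols, at -0.03 on the left and 0.29 on the right.

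Markers of other cells moved with the macrophage genes to different degrees. In white fat against brown fat, 34.8% of all tested symbols were higher in white fat and 38.0% were higher in brown fat. Fibroblast and progenitor markers were higher in white fat than in brown fat for 8 of 9 tested genes and lower for 1, Pdgfrb, a call lost without brown fat replicate 2 or 3 or white fat replicate 1 or 3. They summed to 1460 to 1524 FPKM in white fat, against 261 to 287 for brown fat and 395 to 510 for soleus. Mesothelium covers the organs of the body cavities, and its 8 markers summed to 126, 113 and 84.9 FPKM in white fat replicates 1, 2 and 3. Their sums were 0.597 to 2.85 in soleus and 1.39 to 1.61 in brown fat, where Wt1 and Krt8 were listed at 0 in all 3 libraries. Of these 8 markers 7 passed the filter through white fat alone. Endothelial markers went the other way, with 6 of 9 tested genes lower in white fat than in brown fat and 1 higher. The matching shares of all tested symbols were 38.0% and 34.8%. Endothelial sums were 72.6 to 113 FPKM in white fat, against 122 to 136 for brown fat and 60.0 to 67.6 for soleus. The split was 3 lower and 3 higher with TPM rescaling, and the 1 higher gene became 2 without brown fat replicate 1 or 3 or white fat replicate 1. Markers of other blood cells were low in all tissues. Those of T and NK cells (13 genes) summed to 6.16 to 11.3 FPKM in white fat, against 1.95 to 4.31 for brown fat and 0.440 to 1.12 for soleus, those of B cells (8 genes) to 3.20 to 4.67, 1.12 to 1.80 and 0.570 to 1.15, and those of neutrophils (10 genes) to 8.11 to 11.1, 4.21 to 5.77 and 1.48 to 3.58. Mast cell markers (7 genes) summed to 12.3 to 24.7 FPKM in white fat, against 8.93 to 10.2 for brown fat and 2.47 to 2.87 for soleus, and dendritic cell markers (8 genes) to 14.5 to 19.5, 7.88 to 10.2 and 7.65 to 8.55. These sums hide genes called lower in white than in brown fat. Of 5 tested mast cell genes 3 were higher and 2 lower (Kit and Hdc). Of 5 dendritic genes 3 were higher and 2 lower (Zbtb46 and Itgae), and 3 of the 5 passed the filter through white fat alone. Of 3 neutrophil genes 2 were higher and 1 lower (S100a9), and 1 of the 3 passed that way. The part of these cells in the levels of the macrophage genes was not tested.

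The genes most like the 7 in their pattern were found by Pearson's r between log2(FPKM + 1) of each tested symbol and the mean standardised profile of the 7 genes, over the 9 libraries. These libraries form 3 tissues, so r mostly reflects the gap between white fat and the rest, and 163 of the 9906 other tested symbols reached 0.99. The 8 highest, all at an r that rounds to 0.997 or 0.998, were Nckap1l, Cp, AI662270, C1qb, Antxr2, Fgf10, Laptm5 and Cyth4. Nckap1l, a blood cell gene of the actin cytoskeleton, stood at 6.97 ± 1.35 FPKM in white fat, 0.702 ± 0.104 in brown fat and 0.435 ± 0.0999 in soleus. Cp, which encodes the copper carrier ceruloplasmin, stood at 54.7 ± 4.53, 7.03 ± 0.0431 and 5.32 ± 0.761 FPKM, and the growth factor gene Fgf10, which is not a blood cell gene, at 13.9 ± 0.302, 0.767 ± 0.104 and 0.209 ± 0.140 FPKM.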

How the data were processed

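Per the labels' protocols, total RNA was extracted with TRIzol and libraries were made with an Illumina kit. Per the submitters' processing notes, TopHat 1.4.1 and Cufflinks 2.0.1 were used with the mouse build mm9. The authors deposited 1 matrix of FPKM values with 18401 rows named by RefSeq accessions. An exact 0 can be a failed estimate and is described only as listed at 0. FPKM also moves with a library's few most abundant transcripts.

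Rows were named from a RefSeq gene table of GRCm38 (18305) or a GENCODE table (38), and 55 without a symbol and 3 with several were left out. Rows of a symbol were summed (541 symbols), and coordinates come only with the promoter sequences. All 9 libraries were fitted on log2(FPKM + 1) by limma 3.58.1 in R 4.3.3, letting the variance depend on the mean, with 6 residual degrees of freedom. Symbols needed 1 FPKM or more in 3 or more libraries, which 9913 met. Tests were two-sided with Benjamini-Hochberg adjustment within a comparison, called under 0.05. Ratios were tested by exact permutation in scipy 1.17.1. The members and lists were chosen with earlier results of these data known, and the ratio to Csf1r after its values were seen. All 7 matched members were named, with, from each list, up to 2 called genes in either direction by size of change, the most abundant gene, and the 8 genes most alike in pattern. Il34, Pdgfrb, the tissue markers and genes given for the filter, for values listed at 0 or for going against their list were named beside that rule.

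Tested on simulated data in which 100 genes moved 0.5 and another 100 moved 1 log2 unit, the fit recovered 67% and 96% in white against brown fat (7 false calls), 71% and 96% in white fat against soleus (11) and 63% and 93% in brown fat against soleus (6). The moved genes were drawn only from the more abundant symbols and were a small share of all. Recovery for genes as low as Fcgr1, or with as many changed symbols as in these data, was therefore not measured. There were 20 alternatives, which changed the pseudocount, filter, scaling, included libraries, trend of the variance, replicate block or summing of rows.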

Additional observations from a re-analysis of the deposited data

How the results depend on the processing

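In white fat against brown fat and against soleus, every member kept its direction and call in all 274 member and setting combinations that could be tested. Fcgr1 could not be tested without a white fat library, since 2 libraries then reached 1 FPKM, so the counts ran from 6 to 7. For brown fat against soleus the count of 5 became 1 with a pseudocount of 5, 2 without a filter, 2 with TPM rescaling, 2 with median of ratios, 2 with upper quartile scaling, 3 with quantile normalization and 1 to 5 when single libraries were left out. The replicate number as a replicate block gave 3. Same-numbered libraries did not deviate together (r of -0.22 to 0.077). That cannot decide whether they came from the same mouse, since a mouse need not shift different tissues alike. No cause of these moves was tested. Cd163 in brown fat against soleus reversed to -0.0088 with a pseudocount of 5, -0.028 with TPM rescaling, -0.30 with median of ratios, -0.23 with upper quartile scaling, -0.18 with quantile normalization, and -0.036, -0.074 and -0.25 without brown fat replicate 2, brown fat replicate 3 or soleus replicate 2, with adjusted p from 0.17 to 0.95 in these settings. Its leave-one-out values reached 0.19. Csf1r there reversed to -0.0086 with median of ratios. Log2 ratios to Csf1r reversed for Adgre1 in white fat against soleus (-0.059 without soleus replicate 2, leave-one-out up to 0.18), Lgals3 (-0.087 without soleus replicate 3, up to 0.37) and Cd163 (0.21 with its higher row, 0.047 without soleus replicate 3, down to -0.53), and in brown fat against soleus for Cd163 (0.14 with its higher row) and Mrc1 (-0.022 without soleus replicate 2, up to 0.22). Over all symbols, TPM rescaling gave 6154 higher in white and 1778 higher in brown fat in place of 3446 and 3769, and 1873 higher in soleus than in white fat in place of 2948. Median of ratios gave 4004 higher in soleus than in brown fat in place of 2535. The share of called symbols higher in white than in brown fat went from 47.8% to 77.6% with TPM rescaling. That of white fat against soleus went from 64.7% to 78.7% with TPM rescaling, 50.1% with median of ratios and 52.3% with quantile normalization, and that of brown fat against soleus from 67.4% to 47.5%, 54.6% and, with upper quartile scaling, 52.3%. Over all alternatives the 23 other macrophage genes higher in white than in brown fat ranged from 15, where 8 genes left the test with a white fat library, to 25, and the 10 higher in brown fat than in soleus from 3 to 12 (the 1 lower from 1 to 3). For resident genes the 3 and 3 between brown fat and soleus ranged from 2 to 6 and from 1 to 4, the 2 lower ligands from 0 to 2, the 2 lower activation genes from 1 to 2, the 1 lower fibroblast gene from 0 to 1, and the endothelial 6 and 1 from 3 to 6 and from 1 to 3. Fcgr1 lay under 1 FPKM in every brown fat and soleus library.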
